A study of Mus musculus with 12 samples.

Results

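The 7 genes described here encode receptors for chemoattractants, the soluble signals that cells follow when they migrate. They are the chemokine receptor genes Ccr1, Ccr2 and Cxcr4, the chemerin receptor genes Ccrl2 and Cmklr1, and the formyl peptide receptor genes Fpr1 and Fpr2. They were chosen by symbol, and all 7 were found among the 14541 genes listed. The libraries came from Wild-type mouse microglia, purified with CD11b beads from the forebrains of pups aged 7 to 9 days and plated at 40000 to 80000 cells per well. Cells received 500 nM recombinant Hevin, which is an astrocyte-secreted matricellular protein, or LPS, the lipopolysaccharide of bacterial outer membranes, at 50 ng/mL, or additional Media, and were kept for 6 h. Each of these 3 groups held 4 libraries, numbered 1 to 4. No transgene or deletion is named for any group, and no label ties the 4 libraries of a group to different mice or wells. The p-values therefore speak only of how far these libraries spread, which may be technical.

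Most chemoattractant receptors are G protein-coupled receptors of the Gi class. Binding of a ligand releases G protein subunits that steer the actin cytoskeleton, and arrestins and RGS proteins then end the signal. Microglia use such receptors to extend processes and to move toward injured or infected tissue. CXCR4 binds the chemokine CXCL12. CCR1 binds CCL3, CCL5 and related chemokines, and CCR2, typical of inflammatory monocytes, binds CCL2 and its relatives. FPR1 and FPR2 sense formylated peptides released by bacteria and mitochondria, and FPR2 also binds annexin A1. CMKLR1 is the signalling receptor of chemerin, whereas CCRL2 binds chemerin without known signalling and presents it to other receptors.

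Levels are given as FPKM (fragments scaled to gene length and library size), which allows genes of different length to be compared. The library sizes carried scaling factors, recovered at 0.804 to 0.897 in LPS and at 1.02 to 1.16 in the other libraries. Whole reads were recovered from the FPKM values, and each library held 18343996 to 27361665 of them in the listed genes. Markers of the labelled cell type were present, with Sparc at 162 to 231 FPKM over the 12 libraries, Siglech at 23.0 to 47.4, Sall1 at 9.49 to 23.7, P2ry12 at 6.40 to 22.2 and Gpr34 at 3.35 to 8.74. Tmem119, a defining marker, was low at 0.531 to 3.23. Markers of border macrophages, a neighbouring macrophage type, summed to 576 to 925 FPKM (6 of 6 listed), most of it from Pf4 at 414 to 649. The lymphocyte list had 1 of 6 genes listed, at 0.171 to 1.19 FPKM, and the astrocyte list summed to 20.5 to 233 FPKM (6 of 6 listed), most of it from Gja1, with group means of the defining markers Aqp4 and Aldh1l1 at 0.203 to 0.689. Of 9 neutrophil markers 8 were listed, and in 7 of these (all but Csf3r) the 3 libraries numbered 2 were above all others. The 8 markers summed to 1961 to 2117 FPKM in number 2 and to 46.6 to 135 in the other 9 libraries. Among these markers S100a9 was at 789 to 962 FPKM in number 2 and at 16.7 to 39.5 elsewhere. Monocyte markers summed to 142 to 158 FPKM in number 2 and to 44.8 to 60.6 elsewhere (6 of 6 listed). Because these are bulk libraries, more cells of a type and more RNA per cell cannot be told apart. The results that touch these libraries are given below also without number 2.

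The genes lie on 4 chromosomes (GENCODE M21 on GRCm38, the build named mm10 in the submitters' processing notes). Ccrl2 (chr9:111054486-111057519, minus strand), Ccr1 (chr9:123962124-123968692, minus strand) and Ccr2 (chr9:124101950-124113557, plus strand) share chromosome 9. Fpr1 (chr17:17876471-17883940, minus strand) and Fpr2 (chr17:17887824-17893952, plus strand) are neighbours that start 3884 bases apart and are read in opposite directions. Cxcr4 is at chr1:128588199-128592293 and Cmklr1 at chr5:113612354-113650426, both on the minus strand. All 7 are protein-coding. For Fpr2, 12.3% of the 100-base windows of its transcripts also stand in another annotated transcript, Gm5966, and 48 exonic bases overlap Fpr3 on the same strand. Of the members its level is therefore the most open to sequence shared with other genes. Ccr2 shares 0.790% of such windows with another gene. Fpr1, Ccr1, Ccrl2, Cxcr4 and Cmklr1 share no such window with another gene.

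The DNA just upstream of 4 members is shown because these genes carried the largest differences below, Ccrl2 and Fpr1 in LPS and Cxcr4 and Cmklr1 in Hevin. Each line gives bases 250 to 11 before a RefSeq start (GRCm38.p6), 5′ to 3′ on the gene's own strand, with matches to the searched motifs in capitals. The windows are chr9:111057529-111057768 for Ccrl2, chr17:17883950-17884189 for Fpr1, chr1:128592310-128592549 for Cxcr4 and chr5:113643614-113643853 for Cmklr1, all on the minus strand. The Cmklr1 start used by RefSeq lies inside the longer GENCODE gene.
Ccrl2: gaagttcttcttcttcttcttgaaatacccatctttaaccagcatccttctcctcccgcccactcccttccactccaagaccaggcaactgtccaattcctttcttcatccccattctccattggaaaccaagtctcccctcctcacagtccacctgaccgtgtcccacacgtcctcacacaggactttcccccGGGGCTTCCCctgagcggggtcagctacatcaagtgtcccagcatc
Fpr1: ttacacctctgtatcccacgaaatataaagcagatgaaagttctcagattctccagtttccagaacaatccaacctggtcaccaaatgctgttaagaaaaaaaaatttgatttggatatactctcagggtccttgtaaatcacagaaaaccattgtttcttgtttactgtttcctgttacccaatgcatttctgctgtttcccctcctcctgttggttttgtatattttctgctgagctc
Cxcr4: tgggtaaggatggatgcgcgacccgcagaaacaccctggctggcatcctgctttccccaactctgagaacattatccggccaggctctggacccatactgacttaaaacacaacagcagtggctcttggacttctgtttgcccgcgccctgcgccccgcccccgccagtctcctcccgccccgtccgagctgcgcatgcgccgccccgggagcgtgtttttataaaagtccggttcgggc
Cmklr1: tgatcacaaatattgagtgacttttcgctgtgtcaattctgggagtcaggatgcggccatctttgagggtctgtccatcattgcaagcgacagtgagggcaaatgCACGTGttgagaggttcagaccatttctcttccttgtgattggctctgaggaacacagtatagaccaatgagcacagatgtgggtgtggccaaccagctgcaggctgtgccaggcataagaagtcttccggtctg
On both strands 8 motifs were searched in the 9 windows of 250 bases that RefSeq starts give for the 7 genes. They were the NF-kB motif and the ISRE by name, AP-1 (TGANTCA), the SMAD box (GTCTAGAC), PU.1 (GAGGAAGT), CRE (TGACGTCA), the E-box (CACGTG) and C/EBP (TTGCGCAA). An NF-kB match, GGGGCTTCCC, stood at position -56 from the most upstream RefSeq start of Ccrl2, whose window is printed above. The windows of its other RefSeq starts held no match. Of all 32851 such windows 3.90% hold a match to this motif. An E-box stood at position -145 from the Cmklr1 start, and 6.02% of all windows hold one. No other match was found in these windows, and no matches overlapped. These are letter matches and not measured binding sites.

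In untreated cells Cxcr4 was the most abundant of the 7 receptors, at 55.7 ± 15.9 FPKM (SD, n = 4). Cmklr1 followed at 27.1 ± 8.09 and Ccr1 at 22.7 ± 7.46 FPKM, and the libraries of these last 2 overlapped. Ccrl2 was at 10.9 ± 1.24, Fpr1 at 6.50 ± 1.03, Fpr2 at 5.62 ± 4.54 and Ccr2 at 0.441 ± 0.264 FPKM, with Fpr1 and Fpr2 not separated by their spread. The summed level of the 7 genes was 129 ± 20.3 FPKM in Media, 295 ± 17.2 in Hevin and 464 ± 69.3 in LPS. FPKM of all listed genes also summed higher in LPS, to 414956 to 430248, against 298271 to 330239 in the other libraries. The makeup of the receptor sum differed between the groups. Cxcr4 made up 42.6% ± 5.62 of the sum in Media, 69.0% ± 4.96 in Hevin and 8.32% ± 2.36 in LPS. Ccrl2 made up 8.56% ± 1.25 in Media and 5.25% ± 1.22 in Hevin, but 60.9% ± 5.71 in LPS. Fpr1 made up 5.11% ± 0.957 in Media, 0.925% ± 0.142 in Hevin and 15.6% ± 6.14 in LPS.

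**Figure D1:**
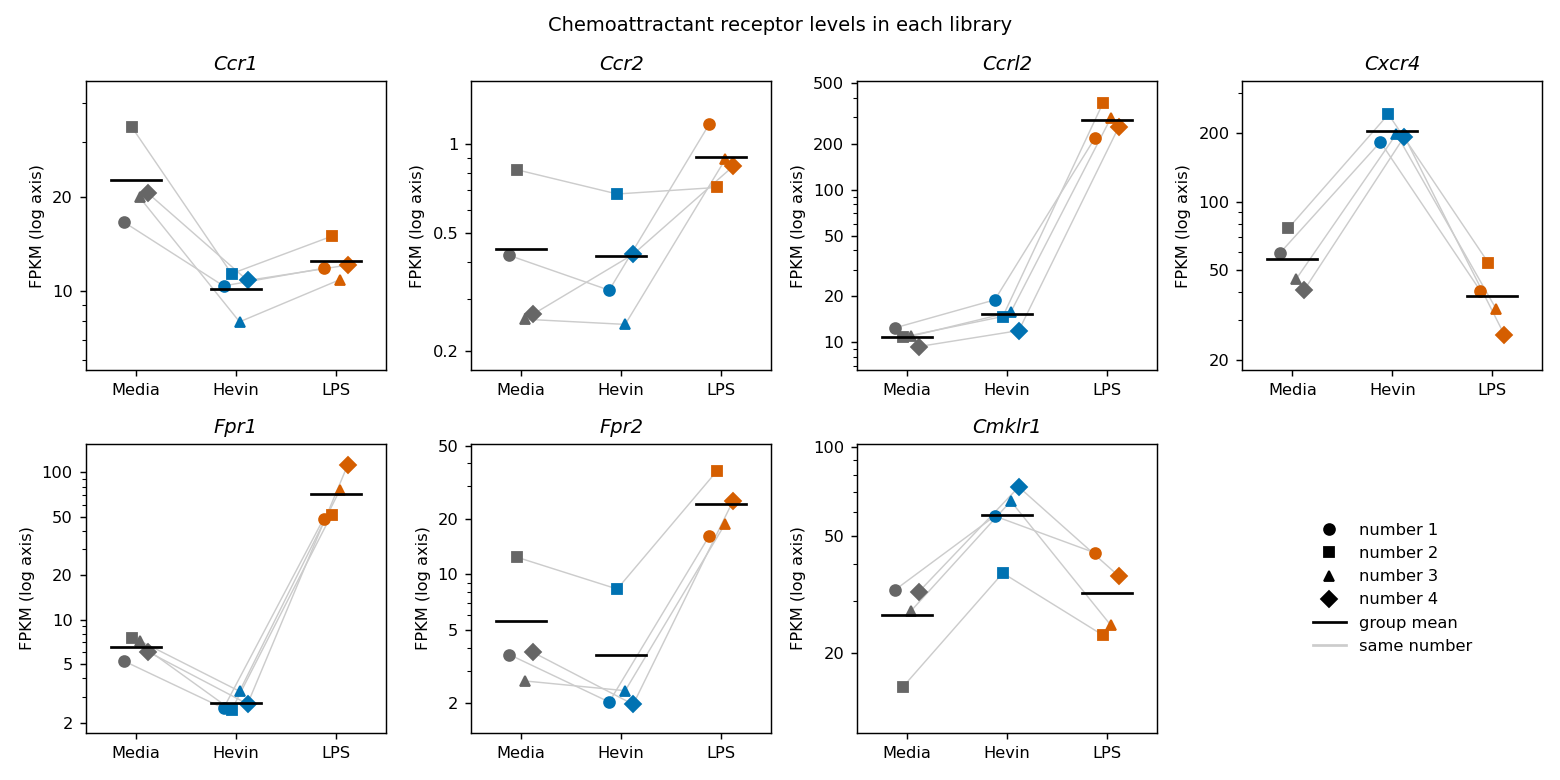
FPKM on log axes of each of the 7 receptor genes in the 12 libraries, by treatment; symbols give the library number, grey lines join libraries of the same number and black bars are group means. Cxcr4 and Cmklr1 are highest in Hevin, Ccrl2, Fpr1 and Fpr2 in LPS, and Ccr1 in Media, while Ccr2 stays near or below 1 FPKM.

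Of the 6 receptors with enough signal to test, 2 rose and 2 fell in Hevin against Media, with 2 not passing. The test was limma on log2(FPKM + 1) across the 11242 genes that reached 1 FPKM in at least 4 libraries, with a Benjamini-Hochberg adjusted p under 0.05, and 7.37% of all genes were called (4.27% higher and 3.10% lower). In LPS against Media 3 receptors rose and 1 fell, against 25.8% of all genes called (13.2% higher and 12.6% lower). The median log2 fold change of the 6 was -0.02 in Hevin and 1.16 in LPS, and that of all genes tested was 0.00 and -0.02. Log2 fold changes below are differences of log2(FPKM + 1) with their SE, and the added 1 FPKM shrinks the change of genes at low levels. Both treatments share the same 4 Media libraries. The libraries of a number also varied together, least clearly in number 4, so the fit with the number as a block is given where it changes a call. With that block 3 receptors rose and 2 fell in Hevin, where 21.4% of all genes were called (10.8% higher and 10.6% lower), and 3 rose and 2 fell in LPS, where 43.7% were called (21.5% higher and 22.2% lower). Counting only whether all 4 libraries of a treatment lay on 1 side of all Media libraries, 2 of the 6 were above and 2 below in Hevin, against 16.6% of all genes (9.05% above and 7.55% below). In LPS 3 were above and 1 below, against 25.6% of all genes (13.3% above and 12.3% below).

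**Figure D2:**
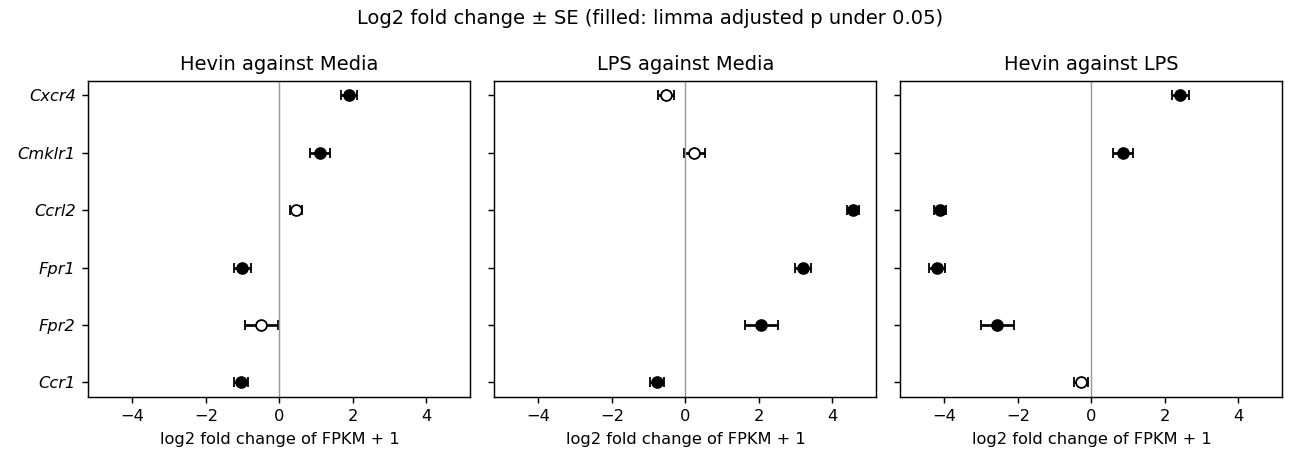
Log2 fold change of FPKM + 1 (± SE) of the 6 tested receptors in the 3 comparisons; filled points passed the limma test at an adjusted p under 0.05. Fpr1 lies below 0 in Hevin and above 0 in LPS against Media, and Ccr1 lies below 0 in both.

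Cxcr4 rose in Hevin in every library. It stood at 59.7, 76.4, 45.8 and 41.0 FPKM in Media numbers 1 to 4, and at 183, 242, 198 and 193 FPKM in Hevin. The lowest Hevin library was above the highest Media library. The rise was 3.67-fold between the group means, from 3.07-fold in number 1 to 4.72-fold in number 4, with a log2 fold change of 1.89 ± 0.22 (limma adjusted p = 2.85e-04). It ranked 27th of the 11242 genes tested by log2 fold change. In LPS Cxcr4 was at 40.5, 53.8, 33.5 and 25.9 FPKM, below the Media library of the same number in 4 of 4 numbers, although the groups overlapped. The log2 fold change of -0.53 ± 0.22 did not pass (limma adjusted p = 0.102), nor did it without the 3 libraries numbered 2 (0.0533), but it passed with the replicate number as a block (limma adjusted p = 2.99e-03). It also passed under upper quartile scaling (adjusted p = 0.0359), quantile normalization (0.0245) and no scaling factors (6.74e-03), and without LPS 2 (0.0311), with limma adjusted p from 1.14e-03 to 0.261 over all alternatives. Between the treatments Cxcr4 was 5.32-fold higher in Hevin than in LPS (a log2 difference of 2.42 ± 0.22, limma adjusted p = 5.94e-06). Its ligand gene Cxcl12 was low in all groups, at 0.731 ± 0.374 FPKM in Media, 0.752 ± 0.444 in Hevin and 1.17 ± 0.475 in LPS. It passed in neither treatment without the block, and in LPS with it (limma adjusted p = 0.0282), but not in LPS under voom on recovered reads with the block.

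Of the 2 chemerin receptor genes, Cmklr1 passed only in Hevin and Ccrl2 only in LPS against Media without the block. With the block Ccrl2 passed in Hevin too. Cmklr1, the signalling receptor, stood at 32.7, 15.4, 27.8 and 32.3 FPKM in Media and at 58.3, 37.4, 65.4 and 73.1 FPKM in Hevin. The Hevin libraries were all above the Media libraries, by 1.78-fold to 2.43-fold within numbers. The log2 fold change was 1.10 ± 0.28 (limma adjusted p = 0.0322, or 1.66e-04 with the block). Without the block the call ended when Media 2 (0.0762), Media 3 (0.0701), Hevin 1 (0.0748), Hevin 3 (0.0871) or Hevin 4 (0.101) was left out, and the limma adjusted p ranged from 5.29e-06 to 0.101 over all alternatives. In LPS Cmklr1 was at 43.8, 23.1, 24.9 and 36.5 FPKM, higher than Media in 3 of 4 numbers, and overlapped Media (log2 fold change 0.25 ± 0.28, limma adjusted p = 0.573). With no scaling factors this small difference turned to -0.0727. Cmklr1 was higher in Hevin than in LPS (0.85 ± 0.28, limma adjusted p = 0.0274). That call ended without Hevin 1 (0.0551), Hevin 3 (0.0670), Hevin 4 (0.0808), LPS 2 (0.0753) or LPS 3 (0.0718), and the adjusted p with the block was 2.25e-04. Over its alternatives it ranged from 1.45e-05 to 0.0808.

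Ccrl2, the chemerin-presenting receptor, had the largest change of any member. It stood at 12.4, 10.8, 11.0 and 9.39 FPKM in Media and at 217, 368, 295 and 258 FPKM in LPS. The rise was 26.1-fold between the means, from 17.5-fold in number 1 to 34.0-fold in number 2, with a log2 fold change of 4.56 ± 0.16 (limma adjusted p = 1.47e-08). Only 9 of the 11242 genes tested had a higher log2 fold change in LPS. In Hevin Ccrl2 was at 19.0, 14.8, 15.8 and 11.9 FPKM, above Media in 4 of 4 numbers by 1.27-fold to 1.53-fold, with overlapping groups. This log2 fold change of 0.45 ± 0.16 did not pass (limma adjusted p = 0.135) but did with the block (limma adjusted p = 0.0483, and 0.0311 for voom on recovered reads with the block), over a range of 0.0311 to 0.302. With the block 21.4% of all genes were called in this comparison. The chemerin gene Rarres2 was below the level tested, at 0.597 ± 0.254 FPKM in Media, 0.570 ± 0.366 in Hevin and 0.764 ± 0.662 in LPS.

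Both formyl peptide receptor genes rose in LPS. Fpr1 stood at 5.25, 7.49, 7.20 and 6.08 FPKM in Media and at 48.4, 51.6, 75.2 and 111 FPKM in LPS. The groups did not overlap, the means differed 11.0-fold, and the log2 fold change was 3.21 ± 0.22 (limma adjusted p = 1.08e-06). In Hevin Fpr1 was at 2.50, 2.43, 3.27 and 2.68 FPKM, each library below every Media library. These levels rest on 74 to 137 reads per library. The means were 2.39-fold lower in Hevin, with a log2 fold change of -1.01 ± 0.22 (limma adjusted p = 0.0157) and an adjusted p of 2.73e-03 with the block. The call ended without Media 3 (limma adjusted p = 0.0518), without the 3 libraries numbered 2 (0.0871), with a pseudocount of 5 (0.108) and with voom on recovered reads (0.0813), over a range of 1.27e-03 to 0.108. Fpr1 was therefore lower than Media in 1 treatment and higher in the other, and it was 26.3-fold lower in Hevin than in LPS (a log2 difference of -4.21 ± 0.22, limma adjusted p = 6.28e-08).

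Fpr2 stood at 3.67, 12.4, 2.64 and 3.77 FPKM in Media, and number 2 was more than 3 times as high as any other Media library. In LPS it was at 16.1, 36.6, 18.8 and 25.2 FPKM, all above Media, with a log2 fold change of 2.07 ± 0.45 (limma adjusted p = 5.45e-03). Without the 3 libraries numbered 2 the log2 fold change was 2.26 ± 0.17 (limma adjusted p = 3.64e-05). In Hevin Fpr2 was at 2.03, 8.33, 2.34 and 1.97 FPKM, below Media in 4 of 4 numbers. The groups overlapped, and the log2 fold change of -0.49 ± 0.45 did not pass (limma adjusted p = 0.625), nor did it with the block (0.0594) or without number 2 (0.164). Fpr2 was lower in Hevin than in LPS (-2.56 ± 0.45, limma adjusted p = 8.10e-04). Of the genes of its ligands, Anxa1 was at 10.1 ± 14.5 FPKM in Media, 8.54 ± 12.3 in Hevin and 13.5 ± 13.4 in LPS, and Camp, also a neutrophil marker, at 38.9 ± 72.1, 36.2 ± 65.5 and 40.4 ± 70.3. Neither passed in either treatment without the block, and with it both were called higher in LPS (limma adjusted p = 0.00744 for Anxa1 and 0.0122 for Camp). Voom on recovered reads with the block called neither of them in LPS.

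Ccr1 was the member that fell in both treatments. It stood at 16.7, 33.6, 20.0 and 20.6 FPKM in Media, at 10.4, 11.4, 7.98 and 10.8 in Hevin and at 11.8, 15.0, 10.9 and 12.1 in LPS. All libraries of both treatments were below all Media libraries. The log2 fold change was -1.05 ± 0.19 in Hevin (limma adjusted p = 4.27e-03) and -0.78 ± 0.19 in LPS (limma adjusted p = 9.29e-03). Both calls held in all 25 alternatives tried, with the adjusted p reaching 0.0154 in Hevin and 0.0289 in LPS. Between Hevin and LPS Ccr1 did not pass (-0.27 ± 0.19, limma adjusted p = 0.263), though Hevin was lower in 4 of 4 numbers, and with no scaling factors the sign turned (0.0537).

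Ccr2, the receptor typical of inflammatory monocytes, was close to the detection limit and was not tested. It had 25 to 86 reads per library, at 0.421, 0.820, 0.256 and 0.266 FPKM in Media, 0.321, 0.679, 0.246 and 0.425 in Hevin, and 1.17, 0.715, 0.888 and 0.843 in LPS. All 4 LPS libraries were above all Hevin libraries, whereas LPS overlapped Media at number 2. With no filter on low values the log2 fold change was 0.41 ± 0.14 in LPS against Media (limma adjusted p = 0.0509) and -0.02 ± 0.14 in Hevin against Media (0.987). In the same fit Ccr2 was lower in Hevin than in LPS (-0.43 ± 0.14, limma adjusted p = 0.0288). All these levels are near or below 1 FPKM, where the added 1 FPKM compresses differences.

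Set directly against each other, Hevin and LPS differed in 5 of the 6 receptors tested, with 2 higher and 3 lower in Hevin. In this comparison 41.7% of all genes were called (22.0% higher and 19.7% lower). With the block the receptor counts were 2 and 3, against 57.9% of all genes (29.9% higher and 28.0% lower). Hevin and LPS libraries did not overlap in 4 of the 6, with 1 above and 3 below, against 37.5% of all genes (20.0% above and 17.5% below). Ccrl2 was 18.5-fold lower in Hevin than in LPS (a log2 difference of -4.12 ± 0.16, limma adjusted p = 7.47e-09), close in size to the difference of Fpr1. By level the order in Hevin was Cxcr4 (204 ± 26.2 FPKM), Cmklr1 (58.5 ± 15.3), Ccrl2 (15.4 ± 2.91) and Ccr1 (10.1 ± 1.50), with Fpr2 (3.67 ± 3.11) and Fpr1 (2.72 ± 0.378) not separated by their spread. In LPS it was Ccrl2 (285 ± 63.9), Fpr1 (71.7 ± 29.1), Cxcr4 (38.4 ± 11.8), Cmklr1 (32.1 ± 9.82), Fpr2 (24.2 ± 9.09) and Ccr1 (12.5 ± 1.77), and there the libraries of Fpr1 and Cxcr4, of Cxcr4 and Cmklr1, and of Cmklr1 and Fpr2 overlapped. Ccr2 was last in each group.

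**Figure D3:**
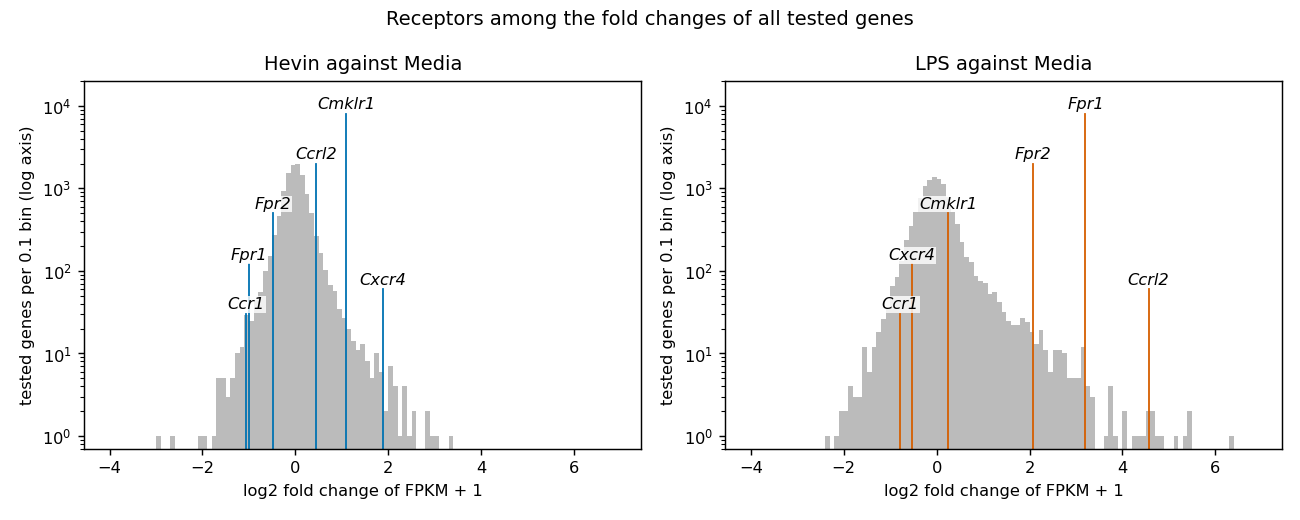
Histograms of the log2 fold change of all 11242 tested genes (log count axis) in each treatment against Media, with vertical lines at the 6 tested receptors; the height of a line has no meaning. Cxcr4 and Cmklr1 lie toward the upper end in Hevin, and Ccrl2, Fpr1 and Fpr2 in LPS.

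The libraries numbered 2, with their higher neutrophil markers, were at the extreme of all 3 groups for 4 members. Fpr2 in number 2 was 3.68 times the mean of the other Media libraries, 3.95 times in Hevin and 1.82 times in LPS. Ccr1 was 1.76, 1.17 and 1.29 times and Cxcr4 1.56, 1.26 and 1.61 times that mean in the same order. Cmklr1 went the other way, at 15.4 against a mean of 30.9 FPKM in Media, 37.4 against 65.6 in Hevin and 23.1 against 35.1 in LPS. Across all genes tested 8.47% were highest and 8.57% lowest in number 2 in all 3 groups. Fpr1 did not share the pattern of Fpr2, since number 2 was highest in Media and lowest in Hevin. The part of neutrophil transcripts in these levels was not tested. Without number 2, Cxcr4 in Hevin had a log2 fold change of 1.97 ± 0.18 (limma adjusted p = 4.50e-04), Cmklr1 1.06 ± 0.19 (0.0131) and Ccr1 -0.91 ± 0.13 (4.73e-03), and Ccr1 in LPS -0.67 ± 0.13 (6.30e-03).

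**Figure D4:**
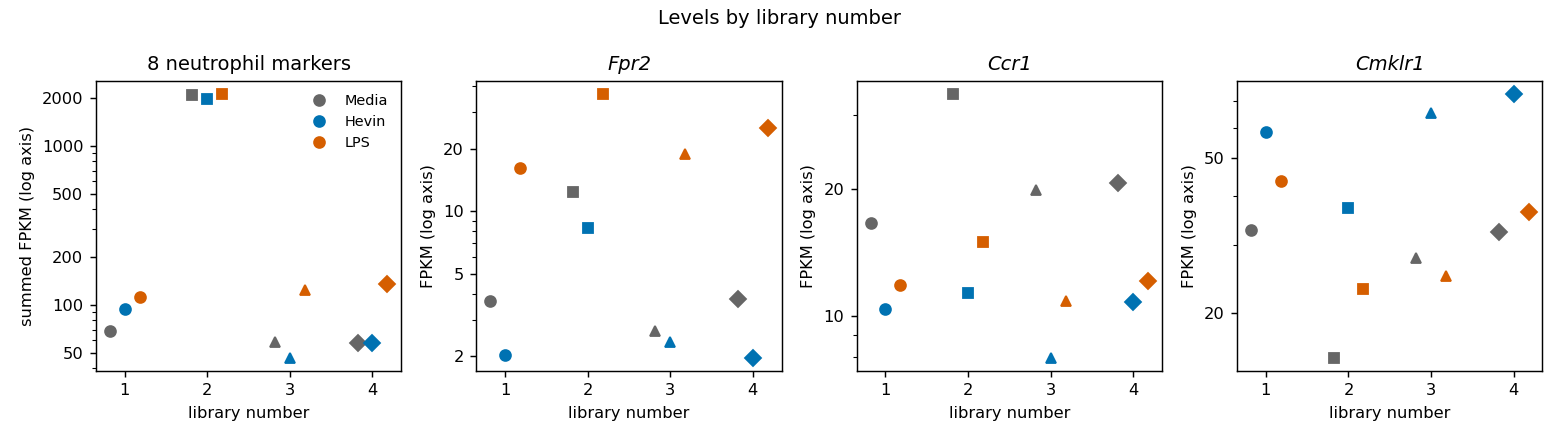
Summed FPKM of the 8 listed neutrophil markers and FPKM of Fpr2, Ccr1 and Cmklr1 by library number (log axes, colours for treatments). Number 2 is highest for the markers, and within each treatment it is highest for Fpr2 and Ccr1 and lowest for Cmklr1.

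Of 12 ligand genes of these receptors 11 were tested, of which 6 rose and 0 fell in LPS (median log2 fold change 1.26), where 25.8% of all genes were called. With the block 9 rose, against 43.7% of all genes, and with voom on recovered reads and the block 6. Ccl5 rose by 5.40 ± 0.45, Ccl7 by 2.65 ± 0.45 and Ccl3 by 2.64 ± 0.24 on the log2 scale. Among the CCR1 ligands Ccl3 reached 5414 ± 1410 FPKM in LPS from 862 ± 242 in Media, while Ccr1 itself was lower. Among the CCR2 ligands Ccl2 went from 39.2 ± 14.9 to 228 ± 127 FPKM and Ccl12 from 9.46 ± 3.34 to 39.5 ± 12.4, with Ccr2 near or below 1 FPKM. In Hevin 0 ligand genes rose and 2 fell (median -0.43), against 7.37% of all genes called, or 5 fell with the block, against 21.4%. Both encode CCR1 ligands, Ccl9 at -1.33 ± 0.27 and Ccl3 at -1.03 ± 0.24. Only Ccl9 fell without Media 2, Hevin 3 or Hevin 4 and without the 3 libraries numbered 2, and the call of Ccl3 also ended without Media 1 (limma adjusted p = 0.0508). Quantile normalization ended the call of Ccl9 in LPS (limma adjusted p = 0.0503).

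**Figure D5:**
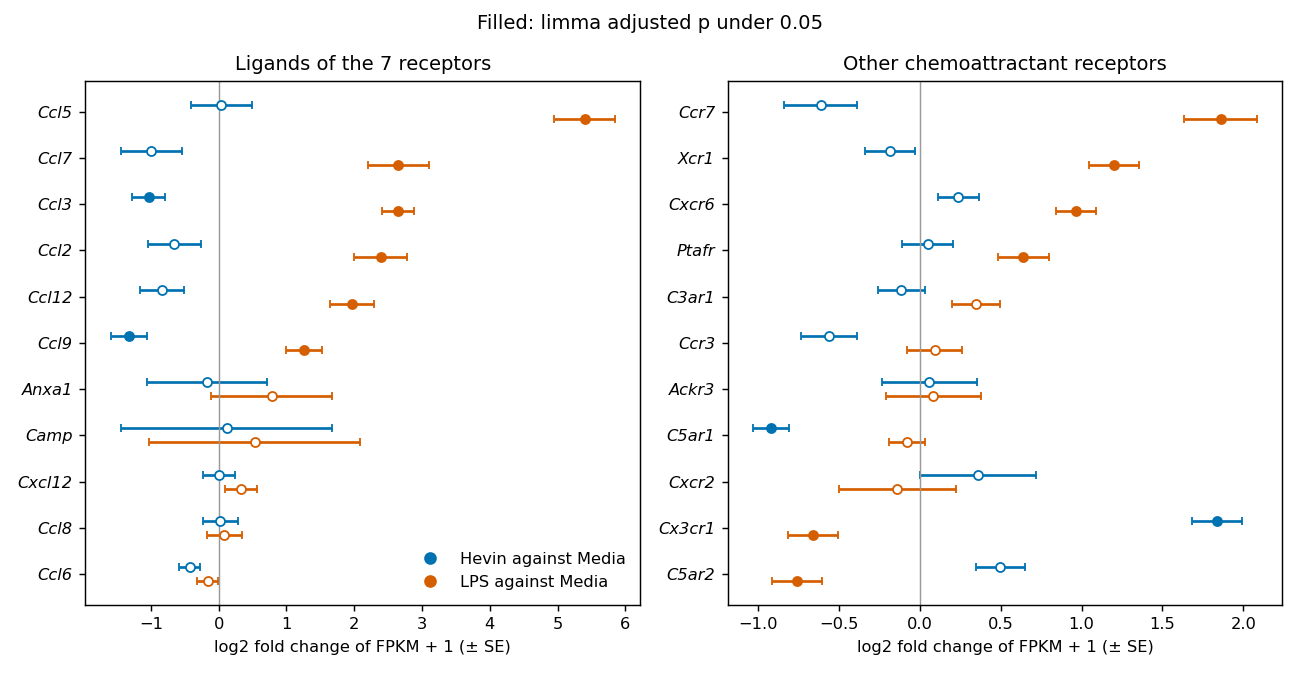
Log2 fold change of FPKM + 1 (± SE) in Hevin and in LPS against Media for the 11 tested ligand genes and 11 of the 12 tested other chemoattractant receptor genes, the remaining gene not being reported here; filled points passed the limma test. Ccl5 lies farthest to the right among ligands in LPS, and Cx3cr1 and C5ar1 are the receptors that passed in Hevin.

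Other receptors for chemoattractants were compared from a list of 27 genes, of which 18 were listed and 12 tested. In Hevin 1 rose and 1 fell (median -0.03), against 7.37% of all genes called, or 3 and 4 with the block, against 21.4%. The fractalkine receptor gene Cx3cr1 had a log2 fold change of 1.84 ± 0.15, close in size to that of Cxcr4, and C5ar1, the receptor gene of the complement fragment C5a, of -0.92 ± 0.11. In LPS 4 rose and 2 fell (median 0.18), against 25.8% of all genes called, or 2 and 1 with a filter of 5 FPKM, under which fewer genes were tested. The lymph node homing receptor gene Ccr7 rose by 1.86 ± 0.23, Xcr1 by 1.20 ± 0.15 and Cxcr6 by 0.97 ± 0.12, while C5ar2 fell by 0.76 ± 0.15 and Cx3cr1 fell by 0.66 ± 0.15. Like Cxcr4, Cx3cr1 was thus above Media in Hevin and below it in LPS, where Cxcr4 passed only in some of the fits given above. The other gene that rose in LPS, Ptafr, passed neither under quantile normalization (limma adjusted p = 0.374) nor with no scaling factors (0.0541). In Hevin 2 fell without Hevin 1 and 2 rose without Hevin 3, and upper quartile scaling or no scaling factors gave 2 and 2.

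Of 26 genes for signalling and shut-off downstream of these receptors 25 were tested. In Hevin 1 rose and 1 fell (median -0.02), a share near the 7.37% of all genes called, or 7 and 7 with the block, against 21.4%. Pik3cg, the catalytic subunit of the G protein-activated PI3 kinase, rose by 0.77 ± 0.14, and the small GTPase gene Rac2 fell by 0.81 ± 0.16. In LPS 5 rose and 10 fell (median -0.21), against 25.8% of all genes called, or 8 and 12 with the block, against 43.7%. Pik3r5, a regulatory subunit of the same kinase, rose from 30.0 ± 6.44 to 163 ± 21.5 FPKM (log2 fold change 2.41 ± 0.15), and its relative Pik3r6 rose by 0.67 ± 0.12. Rac2, which fell in Hevin, was higher in LPS (0.49 ± 0.16, limma adjusted p = 0.0379), a call that ended in 10 alternatives, with its adjusted p then at 0.0503 to 0.398. The genes that fell were led by the signal terminators Rgs2 (-1.39 ± 0.25), Arrb1 (-1.14 ± 0.17) and Rgs10 (-0.71 ± 0.17). The number falling in LPS was 6 without Media 1, Media 4, LPS 3 or LPS 4, and the number rising was 3 without Media 1, Media 3, Media 4, LPS 1 or LPS 4. Quantile normalization gave 2 rising and 12 falling, upper quartile scaling 3 and 11, and no scaling factors 2 and 15, with Gnb1 turning sign in the first and last of these and Gnai3 in the first. In Hevin 2 rose without Media 1 or LPS 2 and in the fit of only both groups, and 3 to 4 under these other scalings.

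Over the 12 libraries the genes whose log2(FPKM + 1) followed each receptor most closely were found by Pearson correlation, as a description only, since the treatment groups set most of the variation. Ccrl2 was followed by Cflar (r = 0.998), Tnfaip3 (0.996) and Cxcl10 (0.993), and Fpr1 by Mfsd7c (0.994), Fam49a (0.991) and Plagl2 (0.991). Cxcr4 was followed by Adcy3 (0.985), Gde1 (0.981) and B4galt1 (0.979), which had their highest mean in Hevin as well. Cmklr1 was followed by Siglec1 (0.946), Rnpep (0.938) and Ms4a6b (0.933), Fpr2 by Sde2 (0.977), Il1f9 (0.973) and Etf1 (0.970), and Ccr1 by Stap1 (0.936), Sel1l (0.932) and Entpd1 (0.917). Stap1 went from 69.2 FPKM in Media to 23.6 in Hevin and 30.8 in LPS, the same order of groups as Ccr1.

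Marker lists of other cell types were set beside these results. For the counts below, 7.37% of all genes were called in Hevin and 25.8% in LPS. With the block 10.8% were higher and 10.6% lower in Hevin, and 21.5% higher and 22.2% lower in LPS. In Hevin Ms4a7 and F13a1 (0.33 ± 0.09, a call that ended in 17 of 25 alternatives) rose among the border macrophage and monocyte markers, while Mrc1 and the astrocyte marker Gja1 fell. Of the microglial markers P2ry12, Tmem119, Sall1, Siglech, Sparc and Gpr34, 0 of 6 passed limma in either treatment, with 1 in Hevin and 0 in LPS at an unadjusted p under 0.05. In Hevin their log2 fold changes were 0.15 to 0.55, all above 0, in the group in which Cxcr4 and Cmklr1 were highest, and the block called 5 of the 6 higher in Hevin and 2 of the 6 in LPS. In LPS the neutrophil list had 1 of 8 genes called, Csf3r (log2 fold change 1.57 ± 0.28). With the block 4 of 8 were called higher, or 2 with voom on recovered reads and the block. In the fit without the block and without number 2 it was 3 of 6 tested, where 1411 of all 11009 genes tested were higher. Outside number 2 the list's sum was 112 to 135 FPKM in LPS, 57.4 to 68.7 in Media and 46.6 to 94.5 in Hevin. Cd163 (0.61 ± 0.19) and Gja1 (1.48 ± 0.24) also rose in LPS, the former not without Media 1, Media 3, Media 4, LPS 1 or LPS 4 or with no scaling factors. With the block 2 of 6 monocyte markers were higher and 1 lower in Hevin, and 3 were higher in LPS, where 0 passed without it. Of the 6 border macrophage markers the block called 1 higher and 2 lower in each treatment, and of 3 tested astrocyte markers 2 higher in LPS. Voom on recovered reads with the block called only 1 monocyte and 1 astrocyte marker higher in LPS. In Hevin it called 1 monocyte marker higher and 1 lower, and 1 neutrophil marker higher. The part of these cell types in the receptor levels was not tested.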

How the data were processed

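The labels' protocols describe 100 ng of RNA per sample, a stranded poly(A) kit and paired reads of 100 bases. The submitters' processing notes name Trimmomatic 0.39, Bowtie2 2.3.5.1, featureCounts, Subread 1.6.3, edgeR 3.30.3 and build mm10, without roles. The authors deposited FPKM values in 1 table. How its genes were annotated and filtered, and whether strand was used, is not stated in those sources. For all 14541 genes the steps between FPKM values gave whole reads within 0.1. FPKM sums were 414956 to 430248 in the LPS libraries, with recovered scaling factors of 0.804 to 0.897. The other 8 libraries had sums of 298271 to 330239 and factors of 1.02 to 1.16.

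The filter kept 11242 genes, those at 1 FPKM or more in 4 or more libraries. Their log2(FPKM + 1) values entered 1 limma model (version 3.58.1, under R 4.3.3) with a trend of variance on level, and p-values were adjusted by Benjamini and Hochberg over all of them. The fit was tested on simulated data in which the libraries varied independently. Those data held no effect of the library number, so that test cannot speak to libraries that vary together. Libraries with the same number in their titles deviated from the group means together (correlation 0.230 to 0.784 in all 12 pairs). Pairs of different numbers lay at -0.592 to 0.528 (36 pairs), so the ranges overlapped. Number 4 was the least set apart. Media 4 correlated at 0.230 with LPS 4 and at 0.499 with LPS 3, but at 0.512 with Hevin 4 and at 0.441 with Hevin 3. The deposited column names also give the Hevin, LPS and Media libraries of each number a shared group number, without saying what it stands for. The numbers were taken as pairs only in the fits with the block, and the main model held no block. The members and gene lists were chosen with earlier results of these data known. All members are named. From each list the text names the called genes with the 3 largest positive and 3 largest negative log2 fold changes in each treatment. Ccl2, Ccl12, Ptafr, Gnb1, Gnai3, Anxa1, Camp, Cxcl12, Rarres2 and the marker genes without a call were added after their values were seen. Results of some other genes in these lists are not reported here.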

Additional observations from a re-analysis of the deposited data

Results flagged for a closer look

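Of 21 sets of 4 libraries (7 receptors in 3 groups), 2 had a library farther from the rest than Dixon's 95% limit for 4 values allows, and chance flags about 1 set in 20. Both were Fpr2 in number 2. In Media number 2 stood at 12.4 FPKM and the others at 2.64 to 3.77. In Hevin number 2 stood at 8.33 FPKM and the others at 1.97 to 2.34. These libraries also had the highest neutrophil marker sums, and the part of that in the Fpr2 level was not tested.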

How the results depend on the processing

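Over 25 alternatives, 429 of 453 receptor fold changes kept their direction and side of the threshold, 14 lost the call, 8 gained it and 2 turned. In many of these the direction was fixed in advance, because the fold change stays the same and only the call can change. This holds for the limma fit with the block, no trend, no filter, only both groups compared and leaving out a library of the third group. The 2 were Cmklr1 in LPS against Media (-0.0727) and Ccr1 in Hevin against LPS (0.0537), both with no scaling factors, an alternative chosen after seeing the data. With the replicate block, which pairs libraries by number, 1210 genes were higher and 1196 lower in Hevin (480 and 349 without it) and 2416 and 2498 in LPS (1484 and 1413 without it). Voom on recovered reads with the block gave 1363 and 1366 in Hevin and 2438 and 2519 in LPS. Apart from Ccrl2 in Hevin and Cxcr4 in LPS, the block changed no receptor's call. Of the receptors 1 rather than 2 fell in Hevin with a pseudocount of 5, with voom, and without the 3 libraries numbered 2, and 2 rather than 1 fell in LPS under upper quartile scaling, quantile normalization, both fits with the block and no scaling factors. Upper quartile scaling gave 2466 genes lower in LPS, and no scaling factors 728 higher and 5007 lower. The share of higher genes among calls in LPS was 51.2%, against 31.5% under upper quartile scaling, 40.2% under quantile normalization and 12.7% with no scaling factors, and these scalings shifted the median of all genes by -0.11 (upper quartile) and -0.29 (none). In Hevin against LPS it was 52.7%, 67.7% under upper quartile scaling and 85.0% with no scaling factors (shifts of 0.12 and 0.32). With none, 5440 genes were higher and 963 lower (2470 and 2215 in the fit reported), and a filter of 5 FPKM left 1604 higher among fewer genes tested. Leaving out 1 library gave 307 to 545 genes higher and 203 to 390 lower in Hevin, 1172 to 1476 and 989 to 1530 in LPS, and 2006 to 2486 and 1837 to 2221 between the treatments. It gave 1 to 2 receptors higher and 1 to 2 lower in Hevin, 1 to 2 lower in LPS and 1 to 2 higher in Hevin against LPS. The cause of these changes was not tested. Depth limits Ccr2 most, at 25 to 86 reads per library.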
